A study of Mus musculus with 144 samples.

Results

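Glutathione S-transferases attach the tripeptide glutathione to electrophilic compounds and so make them water soluble and ready for export from the cell. The cytosolic enzymes are grouped by sequence into classes named with Greek letters, the kappa enzyme sits in mitochondria and peroxisomes, and the microsomal enzymes belong to an unrelated family of membrane proteins. Hepatocytes hold large amounts of several classes, and several of these genes are known targets of the aryl hydrocarbon receptor (AHR) or of the stress-responsive factor NRF2. The 10 genes described here were taken by name and class from the 55359 genes in the count files. They are Gsta2, Gsta3 and Gsta4 (alpha), Gstm1, Gstm2 and Gstm3 (mu), Gstp1 (pi), Gstt1 (theta), Gstk1 (kappa) and Mgst1 (microsomal).

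RNA-Seq was run on primary hepatocytes, which are cells freshly isolated from liver and kept in culture, from male mice at 28 days of age. The cells carried the label WT (strain C57BL/6NCrl, wild-type) or the label Pkm-delta-DRE (genotype DRE-null, called DRE below), and received DMSO vehicle or 10 nM TCDD (2,3,7,8-tetrachlorodibenzo-p-dioxin), a potent ligand of the AHR. They were harvested after 2, 4, 8 or 12 h, or after 24, 48, 72, 96 or 120 h, with 4 libraries in each of the 36 groups. The study asked how the response to TCDD differs when a dioxin response element (DRE), the short DNA motif bound by the AHR, is removed from the gene of the glycolytic enzyme pyruvate kinase M (Pkm). The deletion is carried by every cell of 1 mouse line made by genome editing, and all cells of both labels, vehicle included, were kept in medium with dexamethasone, a glucocorticoid. The sources name different plate formats for these cultures, and no label ties a library to an animal, isolation or culture. The 4 libraries of a group may therefore share cells, as may libraries of different hours, and p-values measure the spread between libraries.

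Each library held between 13588848 and 30719161 read pairs assigned to genes, and every member was counted in every library. Cyp1a1, the standard AHR target gene, was 6.02 higher with TCDD (log2, mean of hours) in libraries labelled WT and 7.69 higher in those labelled DRE, and 4 libraries labelled WT (vehicle library 1 at 48 h, vehicle library 3 at 96 h, TCDD library 4 at 2 h and TCDD library 4 at 72 h) had a Cyp1a1 level that went against their treatment label. Pkm itself changed with TCDD by 0.61 (log2, adjusted p = 0.0135) under the label DRE and by -0.26 (adjusted p = 0.236) under the label WT, whereas the labels place the deletion in the DRE libraries. The difference between these responses was 0.88 (adjusted p = 0.0504) and was not called. Both are means of hours, and at 96 h under the label WT, where 15.1% of all genes were called, Pkm was called lower (log2 -0.73, adjusted p = 0.00376). Counts per gene do not separate the isoforms Pkm1 and Pkm2. Groups are therefore named by their labels throughout. Vehicle library 4 of the label DRE at 4 h and vehicle library 4 of that label at 96 h went against their hour labels. Cyp2e1, a hepatocyte gene lost early in culture, was 0.109 CPM in the library labelled 4 h and 2704 CPM in the library labelled 96 h, against lowest and highest values of 2861 and 1.43 CPM in the other libraries of the same groups. The summed level of 6 hepatocyte markers (Alb, Apoa1, Ttr, Serpina1a, Cyp2e1 and Hnf4a) in vehicle libraries of both labels ran from 131350.0 to 238262 CPM at 2 h and from 2704 to 15799.5 CPM at 120 h.

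The 10 genes lie on 6 chromosomes of the mouse genome in the GRCm38 annotation (GENCODE M21), matched to the counts by gene identifier. The mu genes form a cluster on the minus strand of chromosome 3, with Gstm3 (ENSMUSG00000004038) at chr3:107963696-107969283, Gstm2 (ENSMUSG00000040562) at chr3:107981702-107986453 and Gstm1 (ENSMUSG00000058135) at chr3:108012255-108017973. Gsta4 (ENSMUSG00000032348) at chr9:78182774-78209349 and Gsta2 (ENSMUSG00000057933) at chr9:78331018-78355788 share chromosome 9, while Gsta3 (ENSMUSG00000025934) is at chr1:21240589-21265661. Gstp1 (ENSMUSG00000060803) is at chr19:4035407-4037985, Gstt1 (ENSMUSG00000001663) at chr10:75783813-75798584, and Gstk1 (ENSMUSG00000029864, chr6:42245935-42250447) and Mgst1 (ENSMUSG00000008540, chr6:138140316-138156755) are both on chromosome 6. Near-identical copies make some counts uncertain, since 41.8% of the 150-base windows of Gstp1 transcripts also occur in Gstp2 or Gstp-ps, 26.8% of those of Gsta2 occur in Gsta1, Gm10639 or Gm3776, and 3.44% of those of Gstm3 occur in Gm8834. For the other 7 members no window was shared.

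RefSeq promoter windows (GRCm38.p6, 250 bases before to 50 bases after a gene's start) were on hand for 9 of the 10 members, all but Gsta4, in 11 windows. The DRE core GCGTG, read on both strands, was in the windows of Gsta2, Gstm1 and Gstp1, against 32.4% of all 32851 windows of that length. The antioxidant response element core TGACNNNGC was in those of Gsta3 and Mgst1, against 12.4% of all windows, and Gstm2, Gstm3, Gstt1 and Gstk1 held neither. A match describes letters in the window and is no evidence of binding. The 4 windows below show the 3 mu genes of the cluster and Gsta2. Of these, Gsta2, Gstm2 and Gstm3 were called with TCDD in comparisons described below, Gstm3 in both directions. Gstm1, the most abundant of the mu genes, was not called with TCDD. A link between these windows and the responses was not tested. Gsta2 is at chr9:78347096-78347395, Gstm1 at chr3:108017769-108018068, Gstm2 at chr3:107986371-107986670 and Gstm3 at chr3:107969125-107969424, each read 5′ to 3′ along the minus strand with the DRE core in capitals.
Gsta2: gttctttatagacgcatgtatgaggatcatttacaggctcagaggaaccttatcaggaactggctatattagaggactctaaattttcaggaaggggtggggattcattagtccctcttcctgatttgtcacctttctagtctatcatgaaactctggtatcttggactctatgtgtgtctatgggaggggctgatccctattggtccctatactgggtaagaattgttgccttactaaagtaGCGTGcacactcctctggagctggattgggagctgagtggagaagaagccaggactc
Gstm1: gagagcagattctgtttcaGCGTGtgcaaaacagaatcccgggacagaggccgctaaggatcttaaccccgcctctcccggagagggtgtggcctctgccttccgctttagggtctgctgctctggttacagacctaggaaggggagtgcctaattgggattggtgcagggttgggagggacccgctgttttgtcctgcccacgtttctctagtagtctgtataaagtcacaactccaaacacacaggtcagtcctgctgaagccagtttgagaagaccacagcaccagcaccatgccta
Gstm2: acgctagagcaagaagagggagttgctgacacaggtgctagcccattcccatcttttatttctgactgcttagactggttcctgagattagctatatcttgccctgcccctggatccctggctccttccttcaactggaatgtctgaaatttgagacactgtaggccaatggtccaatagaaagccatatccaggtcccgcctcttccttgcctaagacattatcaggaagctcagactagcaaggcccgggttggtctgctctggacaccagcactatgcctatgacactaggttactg
Gstm3: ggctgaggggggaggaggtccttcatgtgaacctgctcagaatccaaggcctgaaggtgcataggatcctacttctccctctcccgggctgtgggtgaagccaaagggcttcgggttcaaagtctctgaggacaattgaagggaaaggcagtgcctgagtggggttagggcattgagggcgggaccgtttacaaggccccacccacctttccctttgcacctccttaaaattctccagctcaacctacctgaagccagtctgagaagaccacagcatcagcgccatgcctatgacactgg

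At the start of culture the pi and microsomal enzymes led. Levels are given as CPM (read pairs per gene, scaled to the library's total by TMM), and are set against each other between genes per kb of the principal transcript. In vehicle libraries labelled WT at 2 h, Gstp1, the main soluble glutathione S-transferase of male mouse liver, had 5132 ± 1578 CPM per kb (SD, n = 4, as for all values with ± here). Mgst1, which protects membranes of the endoplasmic reticulum and mitochondria from lipid peroxidation, came next at 3166 ± 490.4 CPM per kb, and the libraries of these genes overlapped. Gstm1, the most abundant mu enzyme, followed with 1417 ± 372 and Gsta3, an alpha enzyme known for clearing aflatoxin epoxide in mice, with 788 ± 189.8 CPM per kb, and these 2 genes also overlapped. Gstt1, which handles small halogenated compounds, stood at 302 ± 54.01 and Gstk1 at 185 ± 28.4 CPM per kb, with no overlap between their libraries under the label WT. Gsta4, which conjugates the lipid aldehyde 4-hydroxynonenal, Gsta2, which also reduces lipid hydroperoxides, and the minor mu enzymes Gstm3 and Gstm2 were lowest, between 118.5 and 60.2 CPM per kb, and each overlapped its neighbour in that order. The libraries labelled DRE gave the same order for the 7 highest genes, from Gstp1 at 5349.5 ± 1308 to Gsta4 at 114.7 ± 21.4 CPM per kb.

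**Figure D1:**
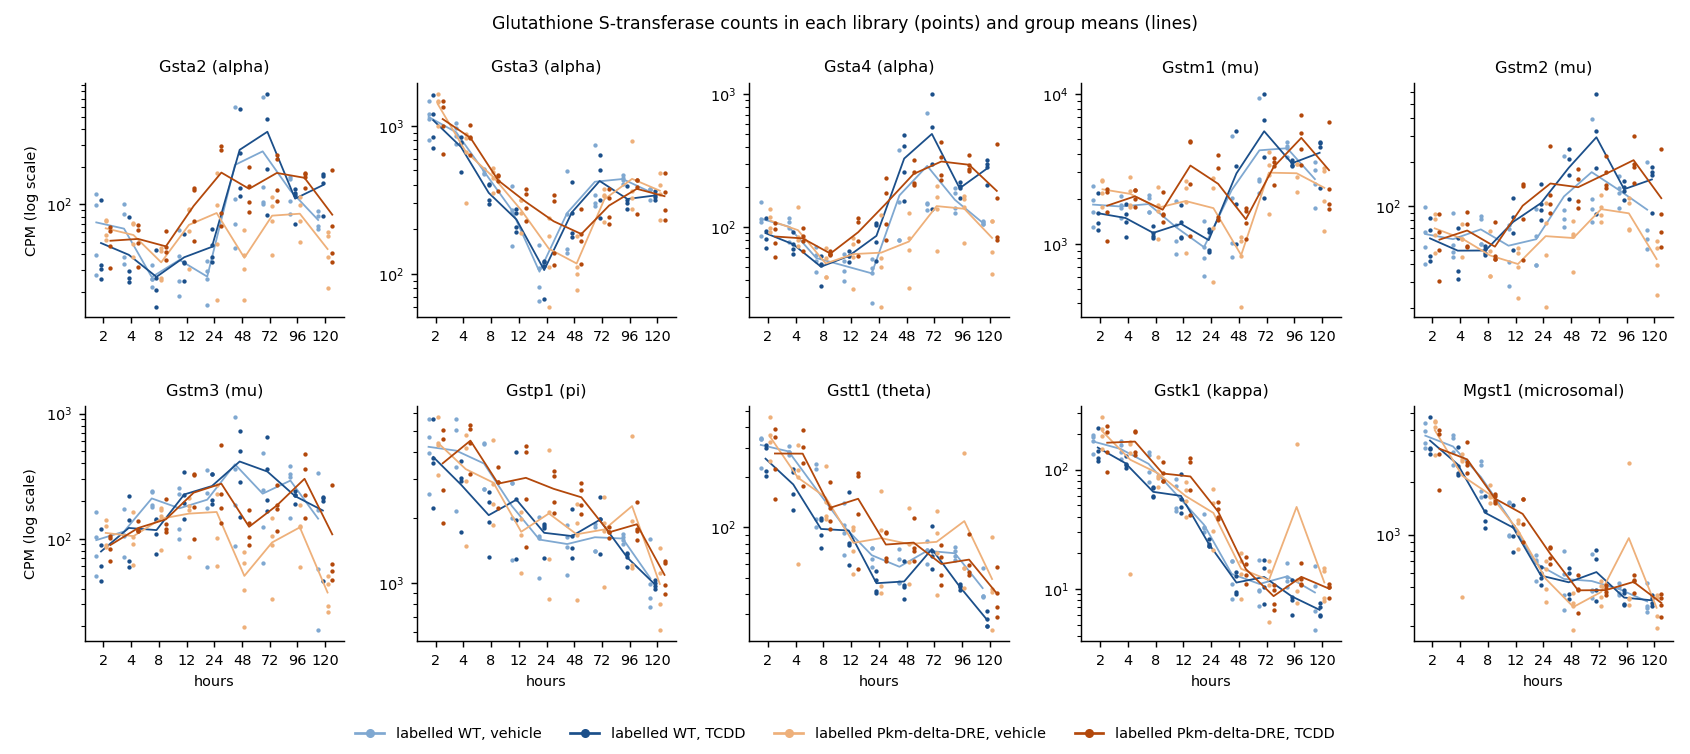
CPM of each of the 10 genes (log axis) against hours of culture, with 1 panel per gene, 1 point per library and lines through the means of 4 libraries for vehicle and TCDD under each label. Hours are evenly spaced and not to scale. Gstk1 and Mgst1 fell with time in all 4 sets, while Gsta4 in vehicle libraries labelled WT went from 115.8 CPM at 2 h to 44.997 at 24 h and 107.9 at 120 h. The single points far from their group at 4 h and 96 h in vehicle libraries labelled DRE are the libraries that went against their hour labels.

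More of these genes were called with time in culture than with TCDD at single hours, but the tests were unlike. Time in culture was fitted over all vehicle libraries, and TCDD at each hour over 8 libraries, so the counts cannot be set against each other directly. Comparing 120 h with 2 h in vehicle libraries, 5 of the 10 genes in libraries labelled WT and 6 in those labelled DRE were called, a call being an adjusted p under 0.05 over all genes tested (edgeR's quasi-likelihood test, Benjamini-Hochberg) with a change of at least 1.5-fold, and all were lower at 120 h. Over all genes 52.3% were called in libraries labelled WT and 52.8% in those labelled DRE, so the share called among these genes was near that background. The median log2 change was -0.90 for the 10 genes against 0.19 for all genes under the label WT, and -1.77 against 0.23 under the label DRE. The summed level of 4 cholangiocyte markers (Krt19, Krt7, Epcam and Sox9) had a median of 87.2 CPM at 2 h and 168 CPM at 120 h, and that of 4 macrophage markers (Cd68, Adgre1, Clec4f and Csf1r) 185 and 31.4 CPM. For 4 endothelial markers (Pecam1, Kdr, Stab2 and Lyve1) these medians were 182 and 39.5 CPM, and for 4 stellate cell markers (Lrat, Reln, Des and Col1a1) 13.8 and 32.4 CPM. The part of these shifts in the results was not tested, and in such bulk samples fewer cells of a type and less RNA per cell cannot be told apart.

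Gstk1, the mitochondrial and peroxisomal enzyme, lost most. Its vehicle libraries labelled WT had 134.6, 186, 173 and 194 CPM at 2 h, 29.9, 33.3, 32.4 and 42.3 CPM at 24 h and 6.56, 15.7, 4.49 and 10.6 CPM at 120 h. The 3 groups did not overlap, and the level at 120 h was 18.6-fold below that at 2 h (log2 -4.22, SE 0.60, adjusted p = 7.31e-08). Under the label DRE the libraries had 275, 149, 218 and 192 CPM at 2 h and 14.9, 7.88, 8.39 and 14.04 CPM at 120 h, and the fall was 18.6-fold (log2 -4.21, SE 0.60, adjusted p = 6.23e-08). Mgst1 went from 3344, 4398, 3130.5 and 3908 CPM at 2 h to 358, 525, 381 and 388 CPM at 120 h under the label WT, with no overlap. That was a 9.02-fold fall (log2 -3.17, SE 0.39, adjusted p = 2.24e-09), and most of it had come by 24 h, where the mean was 681 CPM. From 24 h to 120 h the further difference in Mgst1 of -0.72 (log2, adjusted p = 0.126) under the label WT did not pass.

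Gstt1 and Gstp1 took the same course at other levels. Gstt1 fell from a mean of 313 ± 56.01 CPM to 43.2 ± 9.09 CPM under the label WT (log2 -2.87, SE 0.45, adjusted p = 3.93e-07) and from 349 ± 86.5 to 48.9 ± 27.4 CPM under the label DRE (log2 -2.84). Gstp1 fell from 4213 ± 1295 to 1054 ± 372 CPM under the label WT (log2 -2.01, SE 0.40, adjusted p = 3.45e-05) and by 2.15 on the log2 scale under the label DRE. Neither gene's 2 h and 120 h libraries overlapped under either label.

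Under the label WT the 3 alpha genes fell by 24 h and rose again by 120 h. From 2 h to 24 h, 7 of the 10 genes were called lower under the label WT, where 37.8% of all genes were called, and 5 under the label DRE, where 38.2% were. Gsta3 had the largest fall, from 804, 1114, 1200.0 and 1476 CPM at 2 h to 110.4, 65.97, 81.5 and 156 CPM at 24 h under the label WT (log2 -3.48, SE 0.38, adjusted p = 1.69e-10). Its 120 h libraries were back at 367, 373, 313 and 376 CPM, above every 24 h library and below every 2 h library, and the rise from 24 h was 3.45-fold (log2 1.79, SE 0.36, adjusted p = 1.50e-04). Under the label DRE Gsta3 fell by 3.25 and then rose by 1.30 on the log2 scale (adjusted p = 0.00334), so both steps passed under both labels. Over 2 h to 24 h the Gsta2 call under the label WT ended without any 1 of 5 libraries (log2 between -1.72 and -1.07), and the Gstp1 call under the label DRE without any 1 of 3 (between -1.63 and -0.76).

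From 24 h to 120 h, 26.6% of all genes were called in libraries labelled WT and 29.5% in those labelled DRE. Besides Gsta3, Gsta2 (log2 1.503), Gsta4 (1.26) and Gstm1 (1.51) rose under the label WT, and Gstk1 was the 1 gene of the 10 called lower (-1.89). The Gsta2 call from 24 h to 120 h was close to the threshold (adjusted p = 0.0454), and it ended without any 1 of the 8 libraries compared, with an adjusted p of up to 0.123 and log2 changes that stayed between 1.32 and 1.68. The Gsta4 call over this span ended without vehicle library 3 at 24 h. Gstm1 libraries had 955, 809, 612 and 1419 CPM at 24 h and 2492, 3492, 1743 and 3089 CPM at 120 h, with no overlap. Under the label DRE the same span gave -0.96 for Gsta2, 0.37 for Gsta4 and 0.45 for Gstm1, none of which passed (adjusted p = 0.209, 0.541 and 0.445), while Gstm3 (-2.14), Gstp1 (-1.07) and Gstk1 (-1.94) fell. The Gstp1 call ended without vehicle library 1 or 4 at 24 h or vehicle library 2 or 3 at 120 h, where the log2 change came as close to 0 as -0.52 (adjusted p of up to 0.372). The difference between the labels in these time courses was not tested. Gstm2 passed in none of the 6 comparisons of hours, with log2 differences between -0.70 and 0.67.

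Between 2 h and 120 h the make-up of the family shifted from pi and microsomal towards mu, though the pi share did not fall steadily. Per kb, Gstp1 made up 44.7 ± 8.16% of the summed level of the 10 genes in vehicle libraries labelled WT at 2 h, 52.1 ± 2.25% at 24 h and 28.8 ± 2.83% at 120 h. The share of Mgst1 went from 28.1 ± 1.71% to 8.23 ± 1.49%. The mu class, most of it Gstm1, went the other way, from 13.8 ± 2.93% to 51.4 ± 4.50%, while the summed level per kb of the 10 genes fell from 11325 to 4428 CPM per kb. The alpha class held 8.99% at 2 h, 3.95% at 24 h and 10.5% at 120 h. Under the label DRE the mu share went from 15.7 ± 1.19% to 48.3 ± 7.72% and the pi share from 42.9 ± 2.39% to 31.5 ± 6.22%. In between, at 48 h, the pi share in these vehicle libraries was 59.5 ± 1.47% and the mu share 21.6 ± 2.57%. With TCDD at 120 h the mu share was 58.9 ± 8.04% in libraries labelled WT and 49.8 ± 10.2% in those labelled DRE, which differed from vehicle by less than the SD of the TCDD libraries.

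**Figure D2:**
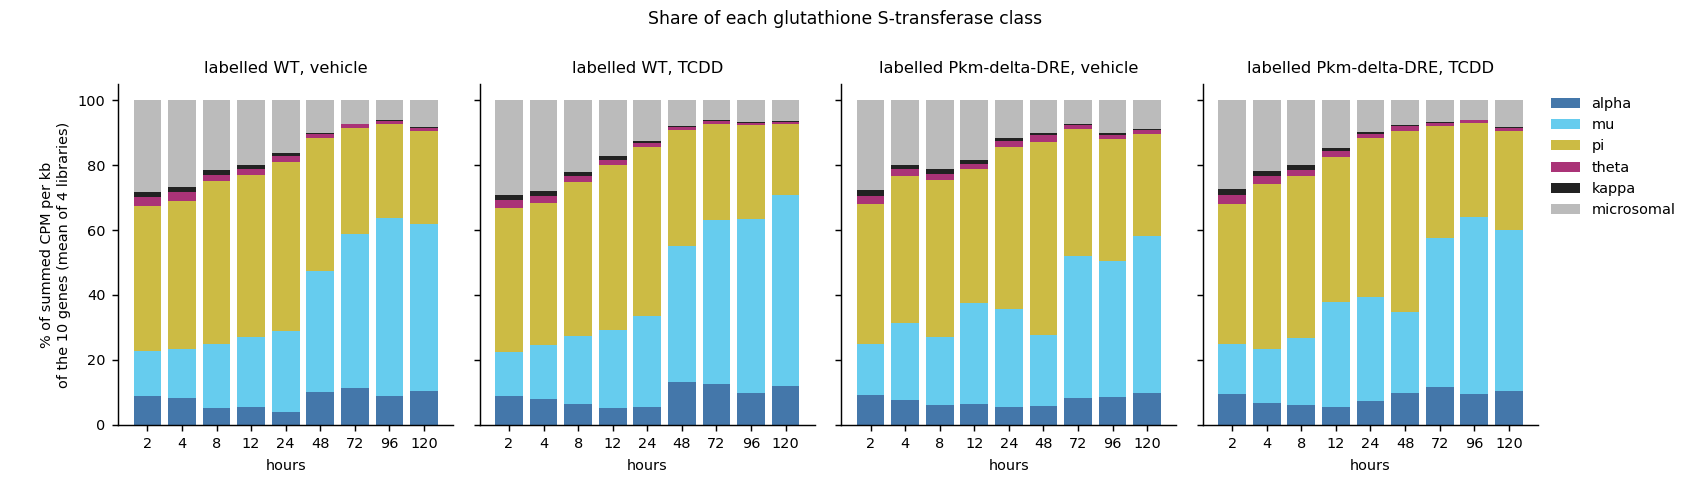
Share of each class in the summed CPM per kb of the 10 genes (stacked bars, mean of 4 libraries, in percent) against hours of culture, with 1 panel per label and treatment. The mu segment grew from 13.8% to 51.4% between 2 h and 120 h in vehicle libraries labelled WT, and the theta and kappa segments were small throughout.

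TCDD changed few of these genes at any single hour under the label WT. Of 90 tests (10 genes at 9 hours), 5 were called, 3 at 8 h and 2 at 120 h. At 8 h Gstm3 had 108.7, 142.2, 75.01 and 142.7 CPM with TCDD and 239, 234, 185 and 181 CPM with vehicle. Gstp1 had 2608, 2359, 1318 and 1917 CPM with TCDD and 4343, 4371, 2709.8 and 2709 CPM with vehicle. Gstk1 had 71.2, 69.8, 59.03 and 60.1 CPM with TCDD and 132.2, 140.8, 78.3 and 95.5 CPM with vehicle. In none of the 3 genes did a TCDD library reach the lowest vehicle library. Gstm3 was 1.64-fold lower (log2 -0.71, SE 0.20, adjusted p = 0.0117), Gstp1 1.58-fold lower (log2 -0.66, SE 0.23, adjusted p = 0.0341) and Gstk1 1.58-fold lower (log2 -0.66, SE 0.19, adjusted p = 0.0128). Gstm1 (-0.51, adjusted p = 0.0108) and Mgst1 (-0.57, adjusted p = 0.0281) passed the test of p but not the fold, and Gstt1 (-0.67, adjusted p = 0.0568) did not pass.

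The 8 h comparison under the label WT stood apart as a whole. Of all genes 37.4% were called there, so the share called, 3 of 10, is no more than that background. The direction was unlike the background, with 63.6% of all genes called being higher and all 3 members called being lower. The median log2 change was -0.54 for the 10 genes, of which 1 was above 0, and 0.004 for all genes. The TCDD libraries of this group had 8.36 to 21.9% of uniquely mapped read pairs in no gene against 4.89 to 5.99% in vehicle, 7.32 to 23.6% unmapped against 8.97 to 13.5%, and 3 of 6 hepatocyte markers were lower with TCDD (Apoa1 -1.03, Serpina1a -0.73 and Ttr -0.68). The macrophage markers Cd68 (-0.96) and Clec4f (-0.65) were also called lower and the stellate cell marker Reln (2.37) higher, and the 4 stellate cell markers summed to between 41.3 and 95.1 CPM with TCDD and between 11.6 and 40.9 CPM with vehicle at 8 h over both labels. The part of these values in the result was not tested beyond 3 corrections. With each library's trend of log count on GC content removed, Gstp1 was -0.24 and Gstm3 -0.43 and neither was called. With the no-gene share as a covariate Gstm3 (-0.65) was not called, while Gstk1 was called under these 2 corrections. With the unmapped share as a covariate all 3 genes were called. Gstm3 was not called without TCDD library 3, Gstk1 without vehicle library 1 or 2, and Gstp1 without TCDD library 3 or 4 or vehicle library 1 or 2, where the adjusted p of Gstp1 rose to 0.0988 at most.

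At 120 h Gsta4 rose and Gstt1 fell under the label WT. Gsta4, the enzyme for lipid aldehydes, had 318, 298, 208 and 283 CPM with TCDD and 106.01, 109.2, 111.2 and 105.2 CPM with vehicle. Every TCDD library lay above every vehicle library, and Gsta4 was 2.48-fold higher (log2 1.31, SE 0.15, adjusted p = 0.00238). Gstt1 had 25.7, 28.1, 31.3 and 25.7 CPM with TCDD and 38.9, 56.8, 38.2 and 38.8 CPM with vehicle, again with no overlap, and was 1.62-fold lower (log2 -0.70, SE 0.14, adjusted p = 0.0424). Of all genes 1.46% were called at this hour. Leaving out any 1 of the 8 libraries left Gsta4 called, whereas Gstt1 was called in only 2 of 8 such fits, with an adjusted p of up to 0.173 (its call ended without TCDD library 1, 2 or 4 or without vehicle library 1, 2 or 4). When all libraries were fitted together, so that every hour shared 1 estimate of the spread, none of the 5 calls under the label WT passed, and Gsta4 at 120 h was 1.36 (adjusted p = 0.169).

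At 96 h under the label WT 15.1% of all genes were called and none of the 10 was, although Gstt1 (-0.57, adjusted p = 8.76e-04), Gsta3 (-0.35, adjusted p = 0.0275) and Gsta4 (0.38, adjusted p = 0.0436) passed the test of p with changes under 1.5-fold. Gstt1 had 44.5, 42.3, 45.6 and 44.1 CPM with TCDD and 76.4, 67.3, 63.5 and 72.4 CPM with vehicle at that hour. No gene of the 10 was called at 2, 4, 12, 24, 48 or 72 h, where 0, 0, 0.0321, 0.373, 0.00763 and 0% of all genes were. The comparisons at 2, 48, 72 and 96 h each hold a library whose Cyp1a1 level went against its treatment label. At 48 h Gsta2 was 0.43 on the log2 scale. With 1 library left out it lay between -0.25 and 1.85 and was called in 0 of 8 fits. At 24 h Gsta4 was 1.03 (adjusted p = 0.163), Gstm2 0.93 (adjusted p = 0.285) and Gsta2 0.89 (adjusted p = 0.265) on the log2 scale.

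**Figure D3:**
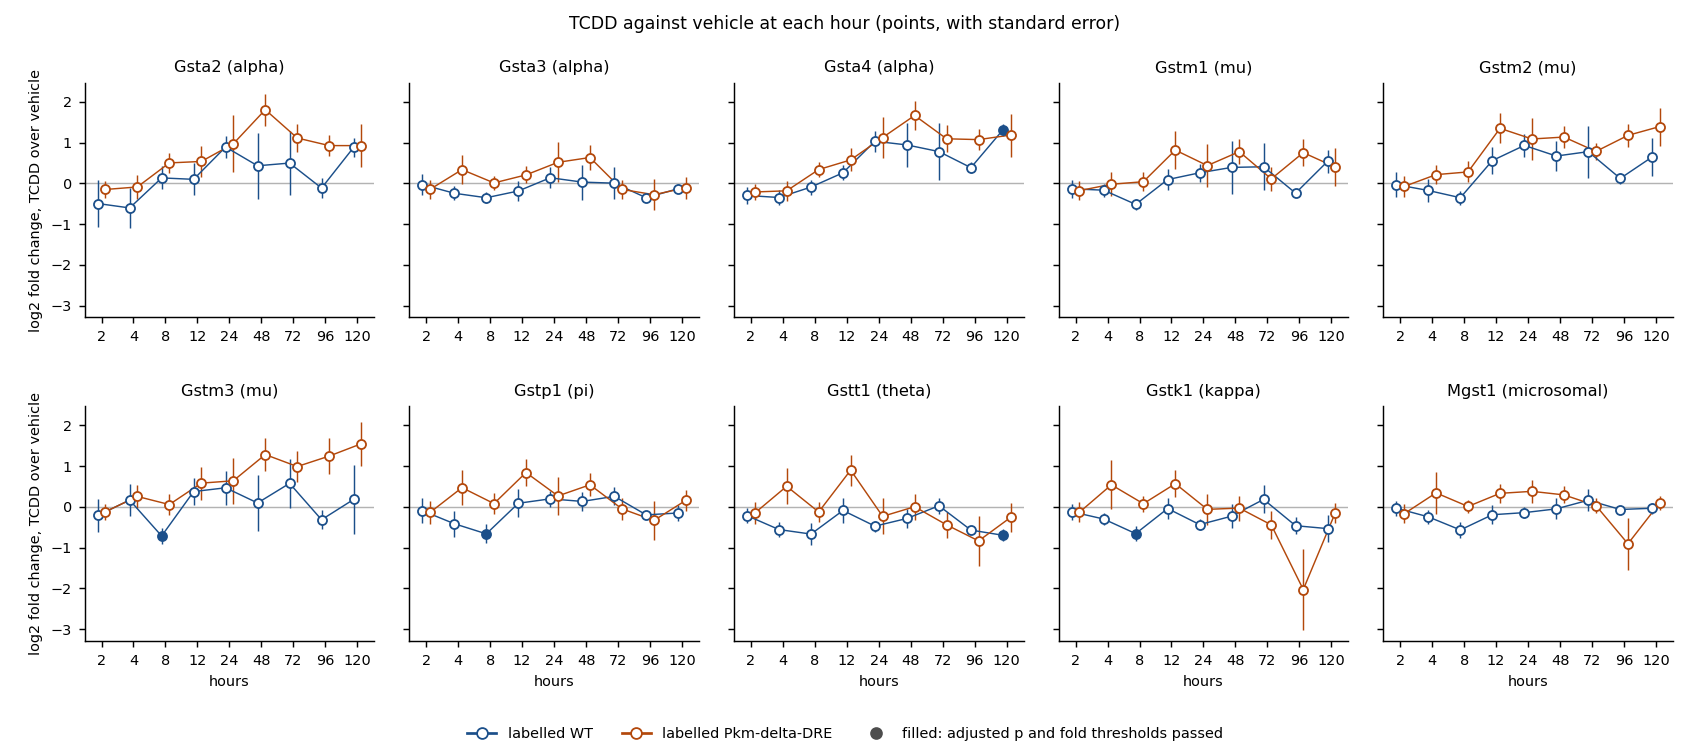
Log2 fold change of TCDD over vehicle (points, with standard error) against hours (evenly spaced) for each gene under the label WT and the label Pkm-delta-DRE, with filled points where a call was made. The 5 filled points are all under the label WT, 3 at 8 h and 2 at 120 h, and from 12 h on the open points of Gsta2, Gsta4, Gstm2 and Gstm3 under the label DRE lie above 0.

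Under the label DRE no gene of the 10 was called at any single hour by edgeR's quasi-likelihood test, while DESeq2 called 4. By edgeR's test 21 of the 90 tests had an unadjusted p under 0.05, as had 22 of 90 under the label WT. Over all genes under the label DRE, the number with such a p ran from 161 of 12481 at 24 h to 1717 of 12132 at 2 h. The shares of all genes called from 2 h to 120 h were 0, 0, 0.106, 0.024, 0.016, 0.404, 1.13, 0.0793 and 0.633%. The largest positive differences were those of Gsta2 and Gsta4 at 48 h. There Gsta2 had 201, 104.96, 139.9 and 87.4 CPM with TCDD and 62.3, 17.2, 30.7 and 39.6 CPM with vehicle, and Gsta4 had 321, 214, 259.6 and 209 CPM with TCDD and 126.8, 34.7, 67.02 and 83.3 CPM with vehicle. Neither gene's groups overlapped, and the log2 differences were 1.81 (SE 0.40, adjusted p = 0.133) and 1.66 (SE 0.35, adjusted p = 0.113). Both passed with DESeq2 (adjusted p = 0.00130 and 0.00102), and both passed without vehicle library 1 or vehicle library 2 of that hour, while with the unmapped share as a covariate they were 1.30 and 1.05 and did not pass (adjusted p = 1.000 and 1.000). At 72 h Gstm2 had 221, 138.6, 131.4 and 171 CPM with TCDD and 98.2, 77.5, 86.2 and 118.03 CPM with vehicle, with no overlap and a log2 difference of 0.78 (SE 0.22, adjusted p = 0.149). Without vehicle library 1 at 72 h, Gstm2, Gsta2 and Gsta4 were all called.

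Values at 4 h and 96 h under the label DRE rest on the libraries that went against their hour labels. At 96 h Gstk1 was -2.03 with all libraries (adjusted p = 0.699) and 0.32 without the vehicle library in question, which had 165 CPM against 7.54 to 11.96 CPM in the others. Mgst1 went from -0.90 to 0.30 in the same way. Gsta4 was 1.07 (adjusted p = 0.372) with all libraries and 0.84 (adjusted p = 0.0222) without that library, which made it the 1 call of the 10 genes under this label. Over all genes, 321 of 14286 were called at 96 h without that library, against 11 of 13866 with all libraries.

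Averaged over the 9 hours, a set of alpha and mu genes was higher with TCDD under the label DRE. This fit took libraries of different hours as independent, which the labels do not say. Its p-values therefore do not allow for cells shared between hours. Gstm2 was 1.74-fold higher (log2 0.80, SE 0.14, adjusted p = 1.37e-05), Gsta4 1.65-fold (log2 0.72, SE 0.13, adjusted p = 4.97e-05), Gsta2 1.64-fold (log2 0.71, SE 0.18, adjusted p = 0.00780) and Gstm3 1.62-fold (log2 0.70, SE 0.18, adjusted p = 0.00773). These 4 of 10 compare with 2.7% of all genes called. The other 6 genes lay between -0.20 for Gstk1 and 0.33 for Gstm1 (adjusted p = 0.160) and did not pass, so the pi, theta, kappa and microsomal members were not called.

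The differences of these 4 genes lay between -0.21 and 0.26 at 2 h and 4 h and at or above 0.54 at every hour from 12 h on. Gstm2 means with vehicle and TCDD under the label DRE were 70.1 ± 18.4 and 58.7 ± 24.4 CPM at 2 h, 39.97 ± 12.4 and 100.1 ± 47.2 CPM at 12 h, and 88.9 ± 22.9 and 205 ± 66.1 CPM at 96 h. For Gsta4 they were 112.1 ± 20.9 and 85.1 ± 21.5 CPM at 2 h and 137.4 ± 42.3 and 294 ± 39.1 CPM at 96 h. The difference was above 0 at 8 of 9 hours for Gstm2 and Gstm3 and at 7 of 9 hours for Gsta2 and Gsta4. Gstm1 and Mgst1, which were not called, were also above 0 at 7 of 9 hours. The hours are those averaged in the calls of the 4 genes, so their signs add no separate evidence. In the libraries of 24 h to 120 h under this label, TCDD libraries had 1.96 to 7.59% unmapped read pairs and vehicle libraries 3.06 to 11.1%. With the unmapped share as a covariate the 4 genes lay between 0.63 for Gsta2 and 0.86 for Gstm2, and all 4 were called. Without the 2 libraries that went against their hour labels the differences were 0.69 for Gsta2, 0.72 for Gsta4, 0.78 for Gstm2 and 0.67 for Gstm3, and all 4 were called. Of the marker lists, 1 of 4 stellate cell markers was called higher (Reln 2.24), 1 of 4 cholangiocyte markers lower (Krt19 -1.41) and 0 of 6 hepatocyte markers either way in this comparison, and their part in the result was not tested. The Gsta2 call ended when the libraries numbered 2 in every group were left out, and the Gstm3 call when those numbered 1 or 2 were, with an adjusted p of up to 0.0611 for Gsta2 and 0.0706 for Gstm3.

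Under the label WT none of the 10 was called over the mean of hours, against 8.03% of all genes, although Gsta4 (0.39, SE 0.13, adjusted p = 0.0213) and Gstt1 (-0.44, SE 0.12, adjusted p = 0.00612) passed the test of p. Without the 4 libraries whose Cyp1a1 level went against the treatment label these were 0.52 and -0.45 (adjusted p = 0.00167 and 0.00550). Gstt1 was below vehicle at 8 of 9 hours under this label and Gsta4 above at 6 of 9. Gstm2 was 0.30 (adjusted p = 0.0910), Gsta2 0.14 and Gstm3 0.02. A call under 1 label alone does not show a difference between labels, and the difference itself was tested. Over the mean of hours it was 0.68 for Gstm3 (SE 0.26, adjusted p = 0.203), 0.57 for Gsta2 (SE 0.26), 0.50 for Gstm2 (SE 0.20) and 0.33 for Gsta4 (SE 0.19), and no gene of the 10 passed, with 0.45% of all genes called.

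Hour by hour the difference in response between labels was not called for any of the 10 genes either. By edgeR's quasi-likelihood test 0 of 90 tests passed, 6 had an unadjusted p under 0.05, and DESeq2 called 0. Of all genes 0.00715% were called at 48 h, 0.00695% at 72 h and 0% at each of the other hours, so few genes of any kind passed. The lowest adjusted p of the 10 genes was 0.261, for Gstm2 at 96 h, where the response was 1.03 higher on the log2 scale under the label DRE (SE 0.31). For Gsta2 at 48 h the difference was 1.40, and with 1 library left out it lay between -0.02 and 2.10. That hour holds a library labelled WT whose Cyp1a1 level went against its treatment label.

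**Figure D4:**
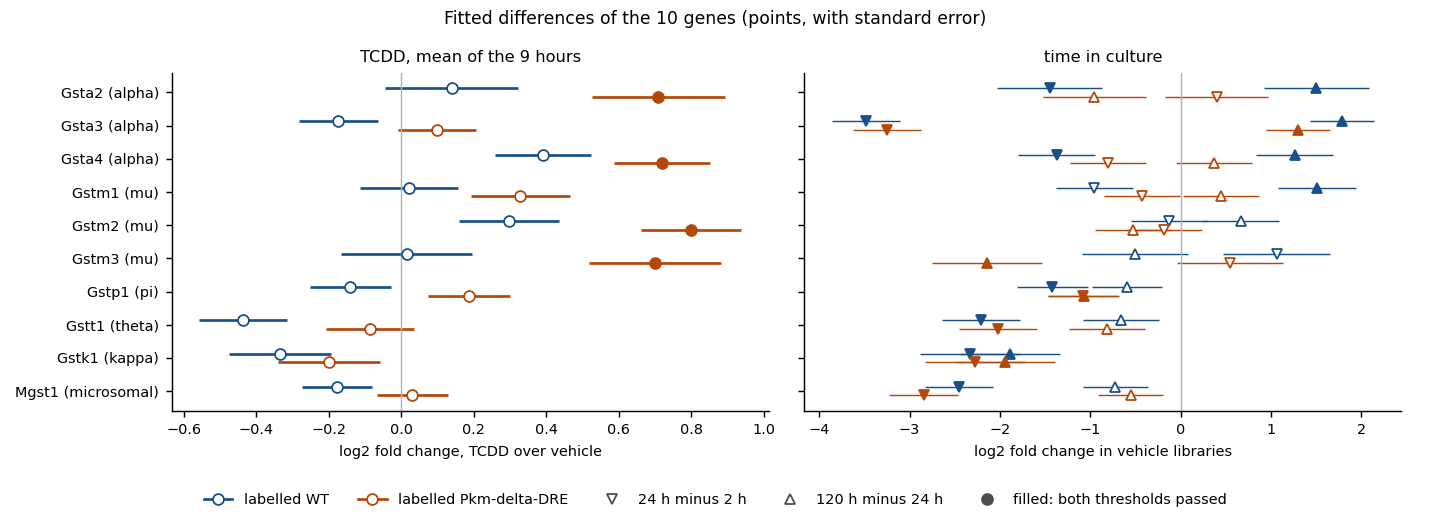
Fitted log2 differences (points, with standard error) of the 10 genes, at left for TCDD over vehicle as the mean of the 9 hours and at right for 24 h minus 2 h (downward triangles) and 120 h minus 24 h (upward triangles) in vehicle libraries, under each label, with filled points where a call was made. At left the filled points are Gstm2 (0.80), Gsta4 (0.72), Gsta2 (0.71) and Gstm3 (0.70) under the label Pkm-delta-DRE.

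Without TCDD, Gstm3 was the 1 gene of the 10 that differed between the labels. Its vehicle group means ran from 97.4 to 393 CPM in libraries labelled WT and from 37.2 to 164 CPM in those labelled DRE, and averaged over the hours it was 1.91-fold lower under the label DRE (log2 -0.93, SE 0.20, adjusted p = 0.00455, and log2 -0.91 without the 2 libraries that went against their hour labels). At 120 h the vehicle libraries had 57.02, 333, 18.6 and 169 CPM in libraries labelled WT and 50.8, 43.1, 25.9 and 28.8 CPM in those labelled DRE, and these groups overlapped. Gstm2, its neighbour in the cluster, was -0.47 (SE 0.14, adjusted p = 0.0560) and did not pass, and the other 8 genes lay between -0.32 for Gsta2 and 0.27 for Gstk1. Of all genes 1.2% were called. The labels do not say whether the genotypes were prepared on the same days, so genotype and hepatocyte preparation cannot be told apart here.

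Among 18 other glutathione S-transferase genes listed, of which Gsta13 had no identifier and was not matched, Gstp2 responded under both labels. The close copy of Gstp1 was called higher with TCDD at 24 h under the label WT (log2 1.90, adjusted p = 0.0188), at 48 h under the label DRE (1.48, adjusted p = 0.0415) and over the mean of hours under both (0.75 and 0.98), and in vehicle libraries it was lower under the label DRE (-0.86, adjusted p = 3.32e-04). Gstp1 itself was -0.14 and 0.19 over the mean of hours and did not pass, and reads of these genes are hard to tell apart. At 8 h under the label WT, where 37.4% of all genes were called, 5 of 13 other members tested were called lower, Gstm6 (-0.94), Gstt2 (-0.87) and Gstm5 (-0.80) most, and Gstcd was called higher (0.89). From 2 h to 120 h in vehicle libraries, Gstt3 (-3.84 under the label WT), Gstz1 (-3.66), which acts in tyrosine breakdown, and Gstm7 (-2.76) fell, while Gsta1, the near copy of Gsta2, rose by 2.02 in libraries labelled WT and 1.68 in those labelled DRE. Hpgds and Mgst2 were also called higher under the label WT, but the highest library of either had 1.56 and 1.43 CPM and all vehicle libraries of that label were at 0 CPM at 2 h, so no fold is given.

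Genes that make and recycle glutathione, and those that carry its conjugates onward, also changed in part. At 8 h under the label WT, 2 of 11 tested genes of this list were called, and both rose, Slc7a11, the cystine importer (1.68), and Gclc, the catalytic subunit of the rate-limiting enzyme of glutathione synthesis (1.53). Among genes for conjugate export and mercapturate formation, Abcc2, the canalicular export pump (1.41), rose and Nat8, which makes mercapturates (-1.14), fell. Of 5 tested glutathione peroxidases, Gpx3 (-0.99), Gpx1 (-0.84) and Gpx4 (-0.79) were lower, all in the comparison in which 37.4% of all genes were called. At 120 h under the label WT Abcc4 (1.16), Abcc3 (0.61) and Oplah (0.74) rose. Over the mean of hours Gpx3 was called lower under both labels (-0.77 for WT and -0.99 for DRE), Slc7a11 (0.76) and Abcc2 (0.60) higher under the label WT, and none of the 12 synthesis and recycling genes nor of the export genes named here was called under the label DRE. With time in culture, Cbs (-4.27) and Cth (-4.08), which supply cysteine, and Nat8 (-6.22) fell from 2 h to 120 h under the label WT, and Abcc4 rose (5.70).

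Across the 36 group means of log2 CPM the 10 genes formed loose sets, given as a description because all groups share the time course and many share controls. Gstk1 and Mgst1 (Pearson r = 0.960), Gstt1 and Mgst1 (0.946) and Gstp1 and Gstt1 (0.942) ran together, and so did Gsta2 and Gsta4 (0.923) and Gsta4 and Gstm2 (0.908). Between the sets r was as low as -0.650, for Gstm2 and Gstk1, and Gsta3 had 0.743 with Mgst1 and 0.0388 with Gsta4 of its own class. Of 9315 other genes, the nearest in pattern was Gclm, the regulatory subunit of the rate-limiting enzyme of glutathione synthesis, for Gsta2 (r = 0.881), Cpq for Gsta3 (0.947) and Tnfaip2 for Gsta4 (0.908). It was Cbr1, a carbonyl reductase, for Gstm1 (0.872), Ddc for Gstm2 (0.867) and H2-T-ps for Gstm3 (0.763), the least close match. For the genes that fell in culture it was Cope for Gstp1 (0.975), Xbp1 for Gstt1 (0.982), Nat8f1 for Gstk1 (0.993) and Pm20d1 for Mgst1 (0.990).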

How the data were processed

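RNA-Seq of mouse hepatocytes gave libraries in 36 groups of 4. The deposited files hold raw read counts per gene made by the authors, who, per the submitters' processing notes, used FastQC 0.11.3, Trimmomatic 0.39, STAR 2.7 and DESeq2 with build GRCm39. The unstranded column was used, and 4 lines per file that summarise reads outside genes (between 16.8 and 48.01% of read pairs) were dropped before library sizes were taken. Kit and column do not keep strand, so overlapping antisense genes cannot be told apart. Names and positions came from a GRCm38 annotation through gene identifiers, and no coordinate was converted.

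Counts were fitted with edgeR 4.0.16 (robust quasi-likelihood, TMM, genes with a count of at least 10 in a group's worth of libraries and 15 in total) in R 4.3.3. A call needed an adjusted p under 0.05 and a fold of at least 1.5. TCDD was compared with vehicle per hour and label in separate fits of 8 libraries, the difference of responses in fits of 16, time in culture and the label difference in 1 fit of all vehicle libraries, and the mean of 9 hours in 1 fit of all libraries. The fits over several hours took libraries of different hours as independent. SE is the absolute log2 fold change over the square root of F. Adjusted p-values are Benjamini-Hochberg over all genes tested. The code was tested on simulated data. Alternatives were DESeq2 1.42.0, RLE scaling, no filter, covariates and libraries left out. Counting intervals are not given, since the 4 libraries of a group show the spread. The members, gene lists and tests were chosen with earlier results of these data known. Every member and each list is reported, and of lists at most the 3 largest called changes per direction are named, apart from a result that is not reported here. For likeness, log2(CPM + 1) group means of genes with a mean of at least 5 CPM were used. Tables used Python 3.11.15, pandas 2.3.3 and matplotlib 3.10.9.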

Additional observations from a re-analysis of the deposited data

Results flagged for a closer look

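With 10 genes in 36 groups, 360 sets of 4 libraries were checked for a library whose gap to the nearest of the others exceeded the critical value of Dixon's test, and 29 were found. Chance alone flags about 1 in 20 such sets. The values are CPM, each with the lowest and highest of the other 3 libraries.

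In vehicle library 3 of the label WT at 72 h the gap was found for Gsta2 at 719 against 100.6 to 136.6, Gsta3 at 748 against 285 to 342, Gsta4 at 718 against 134.4 to 151, Gstm1 at 9347 against 2171 to 2692, Gstm2 at 396 against 77.1 to 112.2 and Mgst1 at 776 against 430.1 to 481. Vehicle library 4 of the label DRE at 96 h had Gsta3 at 792 against 274 to 361, Gstt1 at 279 against 43.3 to 57.1, Gstk1 at 165 against 7.54 to 11.96 and Mgst1 at 2566 against 394 to 431. For vehicle library 1 of the label WT at 48 h the values were Gsta2 at 601 against 44.8 to 111.4 and Gstm2 at 218 against 71.9 to 93.2. In vehicle library 2 of the label WT at 120 h the gap was found for Gstm2 at 198 against 50.9 to 68.1 and Gstt1 at 56.8 against 38.2 to 38.9. The DRE-labelled vehicle libraries 4 at 96 h and 4 at 4 h are those that went against their hour labels in Cyp2e1, and the vehicle library 1 at 48 h of the label WT is 1 of the 4 whose Cyp1a1 level went against the treatment label.

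TCDD library 3 of the label WT at 120 h had Gstm1 at 2357 against 4400.1 to 4775 and Gstm3 at 45.7 against 200.3 to 214. For vehicle library 4 of the label DRE at 4 h the values were Gsta4 at 142.9 against 72.1 to 84.04 and Mgst1 at 438 against 2633 to 2910.0. In TCDD library 2 of the label DRE at 120 h the gap was found for Gstm1 at 6518 against 1695 to 2337 and Gstm3 at 269 against 47.1 to 62.5. Vehicle library 1 of the label WT at 2 h had Gstt1 at 229 against 338 to 344. For vehicle library 3 of the label WT at 120 h the value was Gsta3 at 313 against 367 to 376. In TCDD library 3 of the label WT at 2 h the gap was found for Gsta2 at 107.6 against 25.6 to 33.01. TCDD library 4 of the label WT at 2 h had Mgst1 at 4723 against 2918 to 3123. For TCDD library 3 of the label WT at 4 h the value was Gsta2 at 78.7 against 23.99 to 29.6. In TCDD library 3 of the label WT at 24 h the gap was found for Gstp1 at 1305 against 1792 to 1875. TCDD library 3 of the label DRE at 4 h had Gstm3 at 138.5 against 115.3 to 117.7. For TCDD library 1 of the label DRE at 8 h the value was Gstm2 at 77.9 against 43.3 to 45.6. In TCDD library 1 of the label DRE at 24 h the gap was found for Gstm2 at 258 against 89.5 to 118.2.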

How the results depend on the processing

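The 5 calls of TCDD under the label WT became 10 with no fold threshold, 11 with the no-gene share as a covariate, 8 with the unmapped share as a covariate, 8 with DESeq2 and 0 when all libraries were fitted together, and with 1 library left out they ranged from 3 to 7 (3 without vehicle library 1 or 2 or TCDD library 3 at 8 h). The 0 calls under the label DRE became 1 without the 2 libraries that went against their hour labels (tried only once the data had been seen), 4 with the no-gene share, 2 with the unmapped share, 7 with no filter on low counts, 4 with DESeq2 and 2 when all libraries were fitted together, and ranged from 0 to 3 with 1 library left out (3 without vehicle library 1 at 72 h). Under the label DRE the calls over all genes moved as well. At 2 h they went from 0 of 12132 to 1114 of 25922 with no filter. With the unmapped share they went from 11 to 844 of 13866 at 96 h, but from 154 to 31 of 13621 at 72 h. The causes were not tested. Differences between labels in the response stayed at 0 calls in every alternative run, time in culture ranged from 27 to 33 calls (29 to 33 with 1 library left out), the difference between labels in vehicle stayed at 1, and the mean of hours stayed at 4 calls, apart from 6 with no fold threshold and a range of 2 to 4 with the libraries of 1 number left out (2 without those numbered 2). Leaving out the 4 libraries whose Cyp1a1 level went against the treatment label also gave 4 calls, and so did either covariate, added after seeing the data. For single genes with a call, no alternative run reversed a direction, while calls were lost for 5 values when all libraries were fitted together, 5 with no filter, 2 with the GC trend removed and 1 with the no-gene share as a covariate. Library numbers follow accession order, and samples of the same number correlated above 0.1 in 50 of 72 pairs (median r = 0.273, 38 best with their own number), in all 4 pairs of a label and hour only for WT at 8, 24 and 48 h and DRE at 12 h. No label says that a number marks a shared culture or day, so the samples were not treated as paired. With the number as a replicate block the calls were 8 under the label WT, 9 under the label DRE, 0 for the difference between labels and 4 for the mean of hours. Calls over all genes under the label DRE then went from 0 to 1810 of 12132 at 2 h and from 3 to 1439 of 12485 at 12 h. At 96 h they went from 11 to 0 of 13866.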
